A study of Rattus norvegicus with 12 samples.

Results

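The genes examined were 36 genes of sterol and fatty acid synthesis, together with their regulators and with genes that remove cholesterol from cells, out of 35716 gene names on the array. They were found by gene name alone, all 36 names were present, and they were measured by 52 of the 41012 probes, 12 of them by several probes. The list was nevertheless selected on measured values, since it was drawn up when the differences between the TTX, BC and CTL arrays were already known, so the numbers of changed members given below describe the list and are no independent evidence about it. The members comprise 9 enzymes from acetyl-CoA to squalene and its branches (Acat2, Hmgcs1, Mvk, Pmvk, Mvd, Idi1, Fdps, Ggps1 and Fdft1), 10 enzymes from squalene to cholesterol (Sqle, Lss, Cyp51, Tm7sf2, Msmo1, Nsdhl, Hsd17b7, Ebp, Sc5d and Dhcr7), 6 regulators or carriers (Insig1, Insig2, Srebf1, Srebf2, Scap and Stard4), 8 enzymes of fatty acid synthesis, elongation and desaturation (Acly, Acaca, Fasn, Scd, Scd2, Elovl6, Fads1 and Fads2) and 3 genes of cholesterol efflux or removal (Abca1, Abcg1 and Cyp46a1).

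Cholesterol is made in brain cells from acetyl-CoA, since lipoprotein cholesterol from the blood does not cross the blood-brain barrier to any large extent. Acetyl-CoA is built into mevalonate and isoprenoid units, these are joined into squalene, and squalene is closed into lanosterol, which is then trimmed and reduced to cholesterol. Transcription of the pathway is driven by the SREBP factors, encoded by Srebf2 (mainly sterol synthesis) and Srebf1 (mainly fatty acid synthesis). Scap escorts SREBP from the endoplasmic reticulum to the Golgi when sterols are low, and the Insig proteins hold it back when sterols are high. Surplus cholesterol leaves cells through the ABC transporters or, in neurons, after hydroxylation by Cyp46a1.

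Dissociated hippocampal cells of E18.5 Sprague-Dawley rat embryos were grown at high density and, at day 10 to 13 in vitro, were kept for 48 h in one of 3 conditions. CTL cultures received vehicle, which the sample labels name as 0.1% DMSO and the study's text as water. TTX cultures received the sodium channel blocker tetrodotoxin (0.5 to 1 μM), and BC cultures the GABA-A receptor antagonist bicuculline (20 μM). Each group had 4 RNA samples on 4 one-color Agilent arrays, 12 arrays in all. It is not stated if the 4 RNA samples in a group derive from different cultures, so that the p-values cover the variation of these RNA samples alone, and that variation may be technical. The arrays sat on 4 slides, each with 1 array of every group, and values are given within slides where they bear on a result.

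All 36 members were well above background on every array by their brightest probe, as were 24703 of the 35713 genes tested. Of all probes, 74.1 to 78.1% were well above background per array. Levels are log2 of the background-corrected signal after quantile normalization, and they were not compared between probes. Differences come from limma over all 12 arrays and are given as log2 with the standard error (SE) or the 95% interval, and adjusted p-values are Benjamini-Hochberg values over all probes. A gene is called where the adjusted p-value is under 0.05 (the FDR) and the change is at least 1.5-fold up or down, the study's thresholds.

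Markers of several cell types were measured in these cultures. All 6 neuron markers and all 7 astrocyte markers were well above background on every array, as were 7 of 8 oligodendrocyte lineage markers, whereas 2 of 6 microglia markers were, and Aif1 and Itgam were above background on no array. The 5 GABAergic interneuron markers were all lower with TTX, by a median log2 difference of -1.33, and their summed level was 16.07 to 16.13 in TTX against 17.51 to 17.73 in CTL and 17.50 to 17.84 in BC. Summed astrocyte markers overlapped between TTX (16.68 to 17.20) and CTL (16.72 to 17.11), and 1 of the 7, Aldh1l1, passed the FDR with a difference of 0.45. Summed neuron markers were 17.38 to 17.70 in CTL, 17.51 to 17.68 in TTX and lower, 17.19 to 17.28, in BC. With TTX against CTL 1 of the 6 neuron markers passed the FDR as higher and 1 as lower. Of 5 endothelial and mural markers 2 were well above background on every array, and 1 was called higher with BC than with CTL. In RNA of a mixed culture, fewer cells of a type and less RNA per cell cannot be told apart. The part of these markers in the differences of the sterol and fatty acid genes was not tested.

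Upstream sequences are shown for 7 of the 8 members called in at least 1 comparison (Mvk, Nsdhl, Ebp, Tm7sf2 and Cyp46a1 lower with TTX than with BC, Srebf1 and Abca1 higher), those with a promoter entry, as the genes on which the comparisons turned. The sequences are RefSeq's for the GRCr8 assembly, and each stretch lies upstream of all annotated transcripts of its gene. Capitals mark CCAAT or its reverse complement ATTGG, the box bound by the factor NF-Y, which is known to work beside SREBP at sterol genes.
Mvk, chr12:47819504-47819753, minus strand: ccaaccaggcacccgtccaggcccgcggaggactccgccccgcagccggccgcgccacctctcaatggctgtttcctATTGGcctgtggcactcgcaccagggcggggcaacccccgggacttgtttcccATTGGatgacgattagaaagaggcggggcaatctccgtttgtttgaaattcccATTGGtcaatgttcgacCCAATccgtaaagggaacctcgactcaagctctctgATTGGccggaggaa
Nsdhl, chrX:155817110-155817300, plus strand: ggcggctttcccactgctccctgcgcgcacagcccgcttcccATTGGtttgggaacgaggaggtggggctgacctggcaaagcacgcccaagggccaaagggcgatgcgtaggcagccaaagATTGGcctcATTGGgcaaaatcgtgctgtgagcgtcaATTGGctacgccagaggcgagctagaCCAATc
Ebp, chrX:16971212-16971371, plus strand: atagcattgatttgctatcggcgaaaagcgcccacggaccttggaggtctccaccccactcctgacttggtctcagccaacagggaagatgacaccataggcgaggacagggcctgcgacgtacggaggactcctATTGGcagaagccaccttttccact
Tm7sf2, chr1:212789573-212789791, minus strand: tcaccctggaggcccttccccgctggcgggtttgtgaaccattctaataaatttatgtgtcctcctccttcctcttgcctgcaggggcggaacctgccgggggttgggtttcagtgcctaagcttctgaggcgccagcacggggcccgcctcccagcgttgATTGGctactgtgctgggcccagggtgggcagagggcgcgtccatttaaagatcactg
Cyp46a1, chr6:133011740-133011947, plus strand: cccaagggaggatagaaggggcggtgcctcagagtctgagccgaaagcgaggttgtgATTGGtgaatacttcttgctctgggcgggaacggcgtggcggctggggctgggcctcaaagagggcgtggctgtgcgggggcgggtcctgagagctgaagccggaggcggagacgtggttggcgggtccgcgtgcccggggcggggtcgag
Srebf1, chr10:45529165-45529414, minus strand: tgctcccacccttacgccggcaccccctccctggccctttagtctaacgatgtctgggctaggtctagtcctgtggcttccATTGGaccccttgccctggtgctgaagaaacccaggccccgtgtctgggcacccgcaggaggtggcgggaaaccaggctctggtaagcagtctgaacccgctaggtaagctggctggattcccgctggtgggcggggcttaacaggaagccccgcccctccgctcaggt
Abca1, chr5:72596564-72596723, minus strand: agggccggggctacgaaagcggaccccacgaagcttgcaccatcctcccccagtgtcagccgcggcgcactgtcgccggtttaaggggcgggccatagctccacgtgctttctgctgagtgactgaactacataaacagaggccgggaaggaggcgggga

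The box occurred 5 times each in the Mvk and Nsdhl stretches, once each in those of Ebp, Tm7sf2, Cyp46a1 and Srebf1, and not in that of Abca1. It was thus found above genes lower with TTX than with BC and above Srebf1, a higher gene whose call depended on single arrays. Promoter entries matched 28 of the 36 members, and over the 250 bases before their annotated starts, both strands searched, 21 of the 28 held CCAAT, against 11385 of the 33469 rat promoters of the table. GGGCGG, the Sp1 box, was found in 22 of the 28 (78.6%) and in 30.5% of all promoters, and the E-box CACGTG in 4 of the 28 (Sc5d, Insig1, Scap and Abca1; 14.3%) against 5.59%. The sterol response element in the form TCACNCCAC was found in 0 of the 28 and in 0.974% of all promoters. These matches are letters in a window and show neither binding nor its absence, and the promoters of the whole table include those of genes not expressed in these cultures.

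With TTX, many sterol genes were lower by a small amount each. Of the 36 members, 29 had a lower mean in TTX than in CTL, 15 of these passed the FDR, and 1 member, Abca1, passed it in the other direction. Among all genes, 5.4% were lower and 4.32% higher at the FDR alone, and among the 24703 genes well above background on all arrays, as the members were, 7.11% were lower. With the fold threshold added, 2 members were lower (Stard4 and Tm7sf2) and 1 higher (Abca1), beside 2.7% and 1.48% of all genes. The median log2 difference of the members was -0.21, against 0.01 over all genes. In 20 members every TTX array lay below every CTL array, which was so for 8.08% of all genes, and in 22 the TTX array was the lower one on all 4 slides, which was so for 17.6%. As the list was chosen with this contrast known, nothing about the list is read from these shares.

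**Figure D1:**
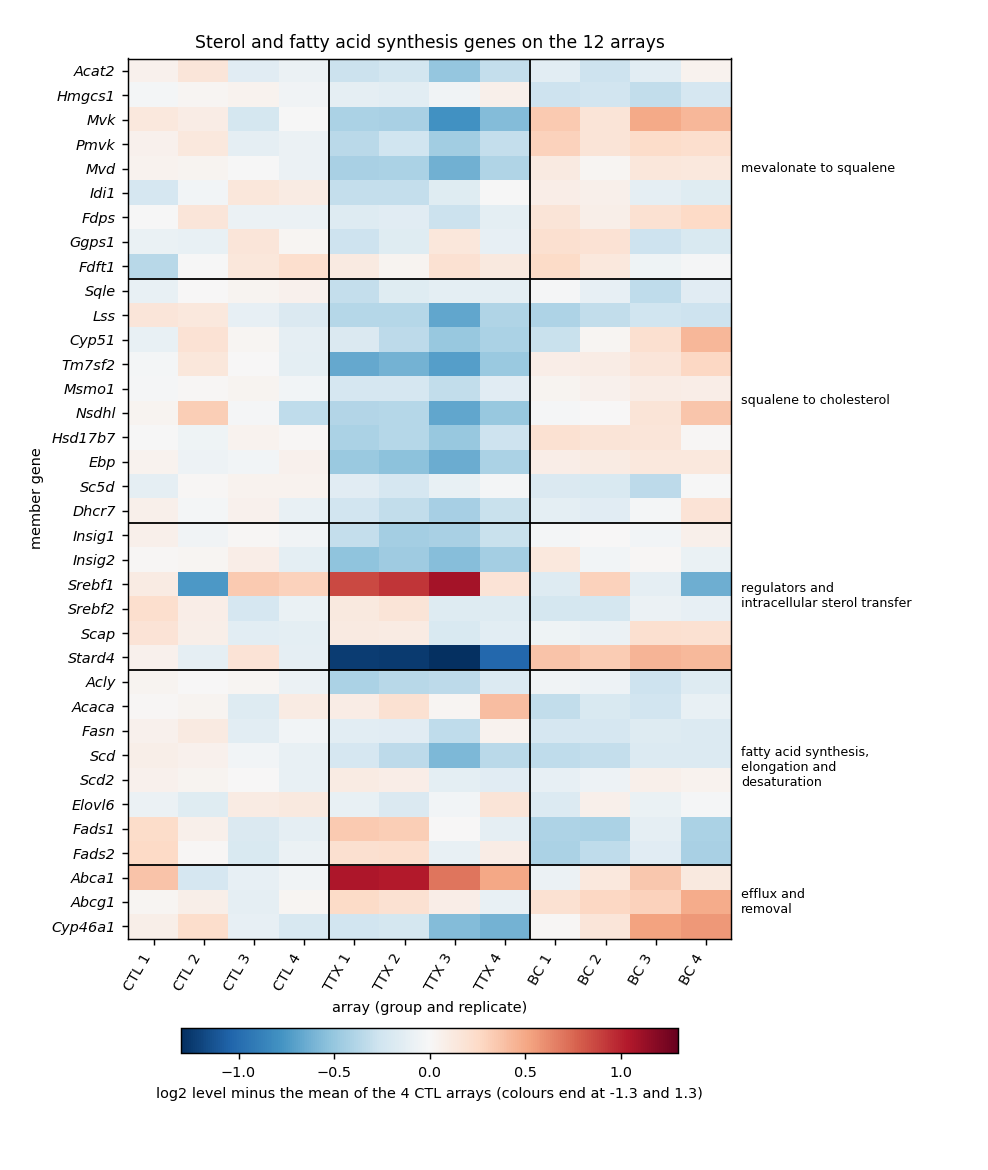
Levels of the 36 members (rows, by role) on the 12 arrays (columns), as log2 level minus the mean of the 4 CTL arrays; blue is lower and red is higher, and paler colours are nearer to 0. The TTX columns are blue for most sterol enzymes, both Insig genes and Stard4, red for Abca1 on all 4 arrays, and red for Srebf1 with TTX replicate 4 the palest.

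Stard4, which carries sterol through the cytosol between membranes, had the largest difference of the members. Its level was 9.91, 9.74, 10.03 and 9.73 in CTL, 8.62, 8.61, 8.56 and 8.83 in TTX, and 10.23, 10.18, 10.30 and 10.28 in BC. The 3 groups did not overlap, with TTX lowest and BC highest. TTX lowered Stard4 to 0.436 of CTL (log2 difference -1.20, SE 0.08, adjusted p = 1.9e-05), and the difference lay between -1.31 and -1.12 on the 4 slides. It was the 1 member called against CTL under all 28 alternatives of processing and of array choice, between -1.26 and -1.09. Of these 28, joining probes through accessions repeated the main fit, and dropping the fold threshold could not remove a call. At the FDR alone both repeated the main result. Averaging the probes of a gene left the values of a member with 1 probe, such as Stard4, unchanged.

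The enzymes that turn squalene into cholesterol all had lower means with TTX. Of the 10, 6 passed the FDR (Lss, Tm7sf2, Msmo1, Hsd17b7, Ebp and Dhcr7), beside 5.4% of all genes lower at the FDR. All 10 were lower with TTX on each of the 4 slides, beside 17.6% of all genes, and their median log2 difference was -0.37. Tm7sf2, a sterol reductase, was at 15.19, 15.37, 15.22 and 15.10 in CTL and at 14.55, 14.60, 14.51 and 14.73 in TTX. No TTX array reached the lowest CTL array, and the log2 difference was -0.62 (SE 0.08, adjusted p = 0.000597). Its call rested on the fold threshold: without CTL replicate 2 the difference was -0.57, short of 1.5-fold, with an adjusted p of 0.00182.

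Ebp, the isomerase that shifts a double bond in the sterol ring, came next in this segment. It was at 14.20, 14.09, 14.11 and 14.20 in CTL and at 13.67, 13.61, 13.51 and 13.74 in TTX. The groups were far apart relative to their spread (SD 0.06 and 0.10), with a log2 difference of -0.52 (95% interval -0.65 to -0.38, adjusted p = 0.000436), just short of the fold threshold. Nsdhl, which takes part in removing methyl groups from the sterol ring, differed by -0.48 but missed the FDR (adjusted p = 0.0521), and its CTL arrays spread from 12.84 to 13.49. Without CTL replicate 4, the lowest of them, the difference was -0.59 with an adjusted p of 0.0165. That was the largest difference of the 28 alternatives, the smallest being -0.38, and Nsdhl passed the FDR in 9 of the 28.

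Lss, Hsd17b7, Dhcr7 and Msmo1 passed the FDR with smaller differences. Lss, which closes squalene epoxide into lanosterol, fell by 0.45 on the log2 scale (adjusted p = 0.0155), and Hsd17b7, a sterol ketoreductase, fell by 0.39 (adjusted p = 0.00366). Dhcr7, which carries out the last reduction to cholesterol in one branch, fell by 0.32 (adjusted p = 0.0306), and Msmo1, the methylsterol oxidase, fell by 0.22 (adjusted p = 0.0194). These 4 enzymes showed no overlap between TTX and CTL arrays, and Dhcr7 and Msmo1 each passed the FDR in 18 of 28 alternatives. Sqle, the squalene epoxidase, differed by -0.18 (adjusted p = 0.198), Cyp51, the lanosterol demethylase, by -0.36 (adjusted p = 0.158) and Sc5d, a sterol desaturase, by -0.12 (adjusted p = 0.438). None of these last 3 passed the FDR, and their 95% intervals reached -0.35, -0.67 and -0.29.

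From acetyl-CoA to squalene the picture was mixed along the chain. Of the 9 enzymes, 4 passed the FDR as lower (Acat2, Mvk, Pmvk and Mvd), beside 5.4% of all genes, and the median log2 difference was -0.20. Mvk, the kinase that phosphorylates mevalonate, was at 12.80, 12.77, 12.44 and 12.66 in CTL and at 12.26, 12.25, 11.88 and 12.10 in TTX. Every TTX array was below every CTL array, and the difference of -0.55 (SE 0.11, adjusted p = 0.0114) was just under the fold threshold. It passed that threshold without CTL replicate 3 (-0.62), without TTX replicate 1 and without TTX replicate 2 (both -0.59).

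The enzymes directly after Mvk in the chain also passed the FDR. Pmvk, which adds the next phosphate, fell by 0.34 (adjusted p = 0.0122), and Mvd, which decarboxylates the product, fell by 0.46 (adjusted p = 0.00141). Acat2, the cytosolic thiolase at the entry, fell by 0.33 (adjusted p = 0.048), and it passed the FDR in only 9 of 28 alternatives, with differences from -0.38 to -0.07. Its second probe was above background on no array. In contrast, Hmgcs1, the synthase at the next step, differed by -0.06 (95% interval -0.19 to 0.07, adjusted p = 0.675). Its levels of 17.00 to 17.19 in TTX overlapped those of 17.07 to 17.17 in CTL, and its second probe differed by 0.01.

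At the branch points no member passed the FDR against CTL. Idi1, the isomerase of the isoprenoid units, differed by -0.20 (adjusted p = 0.32) and Fdps, which makes farnesyl diphosphate, by -0.18 (adjusted p = 0.148). Ggps1, which leads to geranylgeranylated proteins, differed by -0.09 (95% interval -0.38 to 0.19). Fdft1, the squalene synthase that commits farnesyl to sterols, differed by 0.12 (95% interval -0.15 to 0.38) and was the 1 sterol enzyme of 19 with a higher mean in TTX. Over the 19 enzymes together, 18 had a lower mean. Of the 19, 10 passed the FDR as lower, beside 5.4% of all genes, and 16 were lower on all 4 slides, beside 17.6%.

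**Figure D2:**
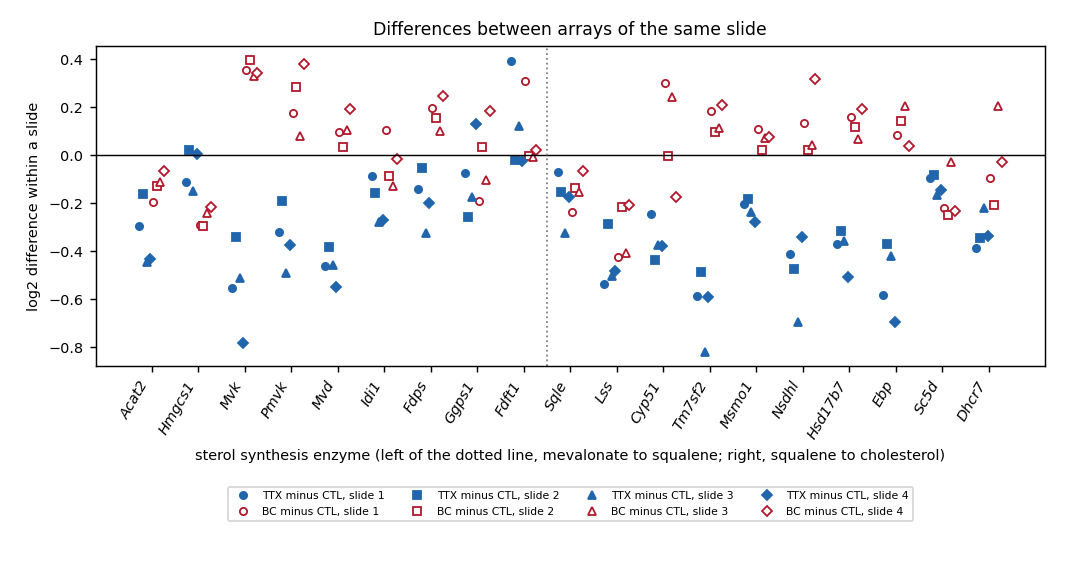
Log2 difference between the arrays of the same slide for each of the 19 sterol synthesis enzymes, in pathway order; filled blue symbols are TTX minus CTL, open red symbols BC minus CTL, and the symbol shape is the slide. All TTX symbols lie below 0 for 16 of the enzymes, some lie above it for Hmgcs1, Ggps1 and Fdft1, and the BC symbols lie on both sides of 0.

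The regulators split. Insig1 and Insig2, which retain SREBP in the endoplasmic reticulum, were both lowered, the first of them being itself a known SREBP target. Insig1 fell by 0.36 (SE 0.06, adjusted p = 0.00245) and its other 3 probes differed by -0.43, -0.43 and -0.36, all past the FDR. Insig2 was at 11.13, 11.13, 11.20 and 10.98 in CTL and at 10.59, 10.65, 10.56 and 10.67 in TTX. Its groups did not overlap, the difference was -0.49 (SE 0.07, adjusted p = 0.00117), and the second probe gave -0.48. Srebf2 differed by -0.01 (95% interval -0.26 to 0.24) and Scap by -0.03 (95% interval -0.27 to 0.22), neither past the FDR.

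Srebf1 had the widest spread of any member. It was at 13.88, 13.02, 14.12 and 14.07 in CTL, at 14.64, 14.70, 14.85 and 13.96 in TTX, and at 13.61, 14.07, 13.66 and 13.14 in BC. TTX replicates 1, 2 and 3 lay above all 8 others, while TTX replicate 4 lay among them. Against CTL the difference was 0.76 (SE 0.29, adjusted p = 0.136), and within slides it ran from -0.16 to 1.61. The second probe differed by 0.84 (adjusted p = 0.129) and the dimmest of the 3 by 0.18 (adjusted p = 0.701), so no probe of Srebf1 passed the FDR against CTL.

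Abca1, the transporter that loads cholesterol onto apolipoproteins, differed in the direction opposite to that of most sterol synthesis enzymes. Its level was 8.61, 8.02, 8.13 and 8.19 in CTL, 9.29, 9.27, 8.93 and 8.74 in TTX, and 8.16, 8.38, 8.59 and 8.37 in BC. All TTX arrays were above all arrays of both other groups, with a difference from CTL of 0.82 (1.77-fold, SE 0.16, adjusted p = 0.00857) that was 0.61 to 1.27 on the 4 slides. Abcg1, the partner transporter, differed by 0.11 (95% interval -0.09 to 0.31). Cyp46a1, the neuronal cholesterol hydroxylase, differed by -0.41 (adjusted p = 0.132), although its 4 TTX arrays (8.65 to 9.03) all lay below its 4 CTL arrays (9.05 to 9.49).

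Of the 8 fatty acid genes, 2 passed the FDR as lower with TTX against CTL, beside 5.4% of all genes. Acly, which makes cytosolic acetyl-CoA for both pathways, fell by 0.32 (adjusted p = 0.0143), and Scd, a stearoyl-CoA desaturase, fell by 0.37 (adjusted p = 0.0182). Scd2, the desaturase paralog, differed by -0.02 (95% interval -0.19 to 0.15), and signal shared between probes of close paralogs was not tested. Acaca and Fasn, the carboxylase and synthase that build palmitate, differed by 0.18 and -0.14, Elovl6 by -0.04, and the desaturases Fads1 and Fads2 by 0.14 and 0.11. The median of the 8 was -0.03.

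BC gave no called member. The FDR and fold thresholds together were passed by 0 of 36 members in limma, beside 2.14% of all genes higher and 1.47% lower, and the same 0 was found under every alternative that kept the fold threshold. At an unadjusted p under 0.05 there were 13 members, beside 19% of all genes, with 18 of 36 means below CTL and a median difference of -0.01. For 32 of the 36 the 95% interval of the difference lay wholly within the fold thresholds, so a change of 1.5-fold was outside the interval for these genes. TTX and BC were compared with the same 4 CTL arrays, and the 2 sets of differences are therefore not independent.

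**Figure D3:**
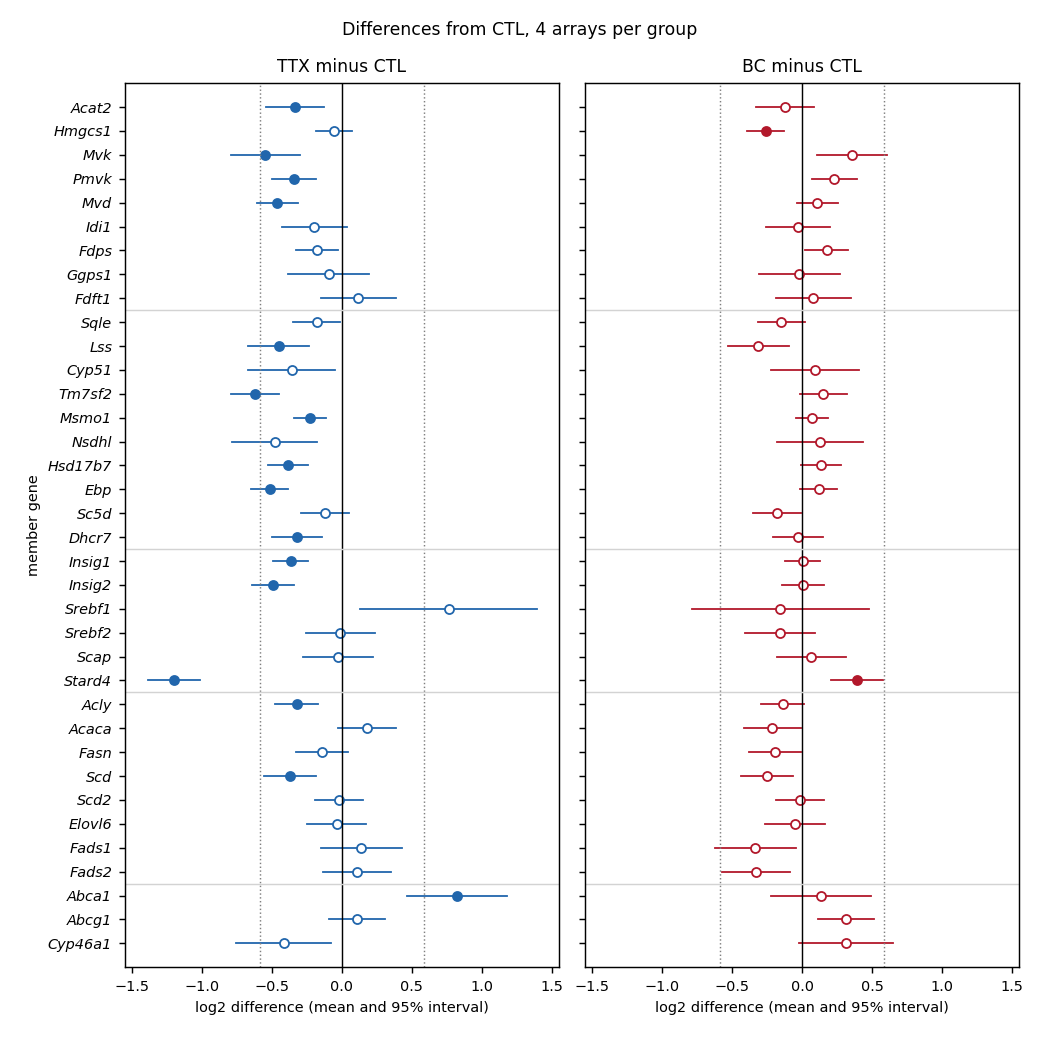
Log2 difference from CTL of each member with TTX (left) and BC (right); points are means of 4 arrays against 4, bars are 95% intervals, filled points have an adjusted p under 0.05, and dotted lines mark 1.5-fold up and down. On the left 16 points are filled, 15 of them below 0, and on the right 2 are filled, Hmgcs1 below and Stard4 above 0.

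At the FDR alone, 1 member was higher and 1 lower with BC, beside 4.61% and 3.49% of all genes. Stard4 was higher by 0.39 (1.31-fold, SE 0.08, adjusted p = 0.0157). Hmgcs1 was at 16.85, 16.87, 16.80 and 16.91 in BC against 17.09, 17.15, 17.17 and 17.07 in CTL. It was lower on every slide, and the difference was -0.26 (SE 0.06, adjusted p = 0.0207). Its second probe differed by -0.31 and missed the FDR (adjusted p = 0.137). The result of the brightest Hmgcs1 probe missed the FDR without CTL replicate 2, CTL replicate 3 or BC replicate 3 and with the deposited log2 values (-0.19, adjusted p = 0.346). No member passed with the replicate number as a block.

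The other members did not pass the FDR with BC. Mvk and Pmvk had all BC arrays above all CTL arrays (differences 0.36 and 0.23, adjusted p = 0.0866 and 0.0809), as did Ebp and Abcg1, so that 5 members with Stard4 showed this, beside 7.58% of all genes. Hmgcs1, Lss, Fasn and Scd had all BC arrays below all CTL arrays, 4 members beside 6.07% of all genes. In 11 members the BC array was the lower one on all 4 slides, beside 17.2% of all genes. In 13 members it was the higher one on all 4 slides, for which no share of all genes is given here. Among the 19 sterol enzymes 5 were lower and 9 higher on all 4 slides. By their brightest probes, all 8 fatty acid genes had a mean below CTL (median -0.20). Of their other probes, 1 of Elovl6 (0.03) and 1 of Scd2 (0.01) lay above CTL. Those of Acaca (-0.21) and Fasn (-0.13) and another of Scd2 (-0.31) lay below. The largest differences of the 8 were those of Fads1 (-0.33, adjusted p = 0.178) and Fads2 (-0.33, adjusted p = 0.108), and none passed the FDR. With the slide as a block 4 members passed it as higher (Stard4, Mvk, Abcg1 and Cyp46a1), beside 8.19% of all genes, and 5 as lower (Hmgcs1, Lss, Scd, Fads1 and Fads2), beside 7% of all genes. With arrays averaged within pairs of slides 0 passed.

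The comparison of TTX with BC gave more calls among the members, as it did among all genes. Between TTX and BC, 6 members were called lower with TTX (Mvk, Tm7sf2, Nsdhl, Ebp, Stard4 and Cyp46a1) and 2 higher (Srebf1 and Abca1), beside 6.19% and 4.68% of all genes. At the FDR alone the counts were 15 lower and 6 higher, beside 12.1% and 11.3%. The 14 members with all TTX arrays below all BC arrays stood beside 13.3% of all genes, and the 22 that were lower with TTX on all 4 slides beside 21.4%.

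**Figure D4:**
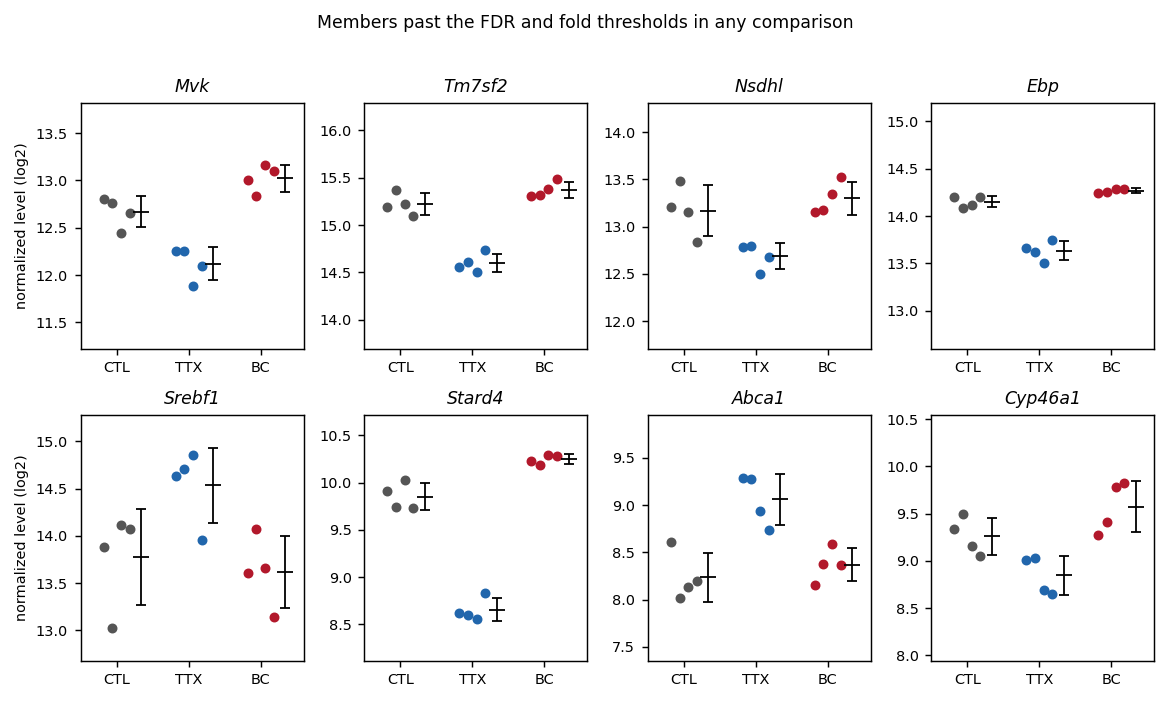
Normalized log2 level of the 8 members called in any comparison, 1 point per array (replicates 1 to 4 from left to right in each group); black bars are the mean and SD of 4 arrays, and every panel spans the same number of log2 units. TTX points lie below both other groups for Mvk, Tm7sf2, Nsdhl, Ebp, Stard4 and Cyp46a1 and above them for Abca1, and the Srebf1 groups overlap.

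In this contrast Stard4 differed most, at 0.332 of its BC level (-1.59, SE 0.08, adjusted p = 5.5e-07). Mvk was at 13.00, 12.84, 13.16 and 13.10 in BC, all above its CTL arrays, and the difference was -0.90 (SE 0.11, adjusted p = 0.000183). Tm7sf2 was at 15.31, 15.32, 15.38 and 15.49 in BC and differed by -0.77 (SE 0.08, adjusted p = 3.67e-05). For these 3 genes the groups were separated by more than the full range of either, and the calls held under all 28 alternatives.

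Ebp had the tightest BC group of the called members, at 14.24, 14.25, 14.28 and 14.29. TTX differed from it by -0.63 (SE 0.06, adjusted p = 2.85e-05), and this call also held under all 28 alternatives. Nsdhl was at 13.15, 13.17, 13.34 and 13.53 in BC and at 12.79, 12.80, 12.50 and 12.68 in TTX. The difference of -0.61 (SE 0.14, adjusted p = 0.0079) fell below the fold threshold without BC replicate 4 (-0.53) and without TTX replicate 3 (-0.54). Pmvk (-0.57) and Mvd (-0.57) were just short of the fold threshold with adjusted p-values of 0.000184 and 0.000105, and each was called in 6 of 28 alternatives. Both were called without BC replicate 2, without TTX replicate 2, with the median signal and with the deposited log2 values (-0.69 and -0.64), Pmvk also with normexp (-0.63) and Mvd also without TTX replicate 4 (-0.59). The sixth alternative of each was that with no fold threshold.

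Cyp46a1 was called between TTX and BC, though against CTL it was called in neither. Its levels were 9.01, 9.03, 8.69 and 8.65 in TTX and 9.27, 9.41, 9.78 and 9.82 in BC. TTX was lower on every slide, by 0.58 to 0.81, and the difference was -0.73 (SE 0.15, adjusted p = 0.00536). In both groups the arrays of 1 pair of slides were lower than those of the other pair, and the CTL arrays showed the same. Its sign was that of most synthesis enzymes.

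The Srebf1 call between TTX and BC depended on single arrays. The difference was 0.92 (1.89-fold, SE 0.29, adjusted p = 0.0389) on the brightest probe, 1.06 (adjusted p = 0.0283) on the second and 0.39 (adjusted p = 0.211) on the third. The adjusted p-value rose above the FDR in 7 of the 12 fits that left out an array: CTL replicate 1 (0.0527), BC replicate 1 (0.0755), BC replicate 3 (0.0742), BC replicate 4 (0.106, difference 0.76), TTX replicate 1 (0.0869), TTX replicate 2 (0.0915) or TTX replicate 3 (0.101). Without TTX replicate 4, the low array of its group, the difference was 1.11. Abca1, by contrast, differed by 0.69 (SE 0.16, adjusted p = 0.00947) and was called in all 12 of those fits, though not with the replicate number as a block and only TTX and BC fitted (adjusted p = 0.0903).

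By role, the members past the FDR between TTX and BC were as follows, beside 12.1% of all genes lower and 11.3% higher. Among the sterol enzymes 11 passed the FDR as lower in TTX and 1, Hmgcs1, as higher (0.20, adjusted p = 0.0282). The second Hmgcs1 probe differed by 0.32 and missed the FDR (adjusted p = 0.0608). Idi1 missed it on its brightest probe (-0.17, adjusted p = 0.314) and passed it on the second (-0.24, adjusted p = 0.0189). Among the fatty acid genes 0 passed as lower and 3 as higher: Acaca by 0.39 (adjusted p = 0.00983), Fads1 by 0.47 (adjusted p = 0.0229) and Fads2 by 0.44 (adjusted p = 0.0146). Fads1 was at 14.16, 14.15, 13.83 and 13.71 in TTX and at 13.42, 13.42, 13.71 and 13.42 in BC, so that the lowest TTX array was just above the highest BC array. The second Acaca probe gave 0.42. Among the regulators and carriers 3 passed as lower: Insig1 (-0.37, adjusted p = 0.000765), Insig2 (-0.50, adjusted p = 0.000323) and Stard4. Srebf1 passed as higher. Of the efflux and removal genes, Cyp46a1 passed as lower and Abca1 as higher. Acat2, Lss, Acly and Scd, lowered by TTX against CTL, did not pass the FDR against BC, where their differences were -0.21, -0.14, -0.18 and -0.12.

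Levels also moved between the pairs of slides within a group. Slides 1 and 3 were scanned before slides 2 and 4, and 19 members were higher on slides 1 and 3 in all 3 groups, 5 were lower in all 3 groups, and 12 were mixed. Cyp46a1 was among the 19, with shifts of 0.31 in CTL, 0.35 in TTX and 0.46 in BC. Each pair of slides held 2 arrays of every group. Averaging the arrays of a group on a pair of slides, which leaves 2 values a group, kept the Stard4 call against CTL and lost those of Tm7sf2 (adjusted p = 0.0613) and Abca1 (adjusted p = 0.0638), with the same differences.

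Other genes of sterol handling were examined outside the list. Of 31 measured genes for sterol uptake, esterification, transport and oxidation and for the pathway's side products, 1 was called lower with TTX against CTL and 0 higher, beside 2.7% and 1.48% of all genes, with a median difference of 0.00 against 0.01 over all genes. That gene was Vldlr, a lipoprotein and reelin receptor, at 10.30, 10.51, 10.61 and 10.16 in CTL and 9.91, 9.77, 9.67 and 9.66 in TTX (difference -0.64, adjusted p = 0.0043). At the FDR alone, 3 of the 31 were lower and 1 higher with TTX against CTL, beside 5.4% and 4.32% of all genes. With BC against CTL none was called. At the FDR alone 1 was higher and 0 lower with BC, beside 4.61% and 3.49% of all genes. Between TTX and BC 3 were called lower and 1 higher, beside 6.19% and 4.68% of all genes. Vldlr (-0.93), Ch25h, a cholesterol hydroxylase (-0.83), and Apod, a lipid-binding apolipoprotein (-0.69), were lower with TTX, and Lcat, which esterifies cholesterol on lipoproteins (0.64), was higher. At the FDR alone 9 were lower and 5 higher in this contrast, beside 12.1% and 11.3% of all genes.

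Of 29 measured genes around fatty acid metabolism, 3 were called lower with TTX against CTL and 1 higher, beside the same 2.7% and 1.48% of all genes. Fabp3, a fatty acid-binding protein, was at 11.23, 11.25, 11.36 and 11.13 in CTL and 10.34, 10.38, 10.21 and 10.25 in TTX (difference -0.95, adjusted p = 6.78e-05). Acss2, which makes acetyl-CoA from acetate, fell by 0.84 (adjusted p = 0.00778), and Slc25a1, the mitochondrial citrate carrier that feeds Acly, fell by 0.65 (adjusted p = 0.0329). These 2 supply cytosolic acetyl-CoA, the starting point of both pathways. Fabp7, a fatty acid-binding protein of radial glia and astrocytes, was higher by 0.63 (adjusted p = 0.000935). At the FDR alone 7 of the 29 were lower and 4 higher, beside 5.4% and 4.32% of all genes.

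Against BC the list had 4 genes called lower in TTX and 1 higher, beside 6.19% and 4.68% of all genes. With BC against CTL there was none, beside 1.47% lower and 2.14% higher. The lower ones were Fabp3 (-1.16), Slc25a1 (-0.79), Hsd17b12, a reductase of fatty acid elongation (-0.70), and Acss2 (-0.63). Me1, the cytosolic malic enzyme that yields NADPH for lipid synthesis, was the higher one (0.96, adjusted p = 3.69e-06). It was at 15.88, 15.90, 15.76 and 15.77 in TTX, 15.46, 15.37, 15.20 and 15.44 in CTL and 14.92, 14.85, 14.87 and 14.83 in BC, with no overlap among the 3 groups and in the order opposite to that of Stard4. At the FDR alone 8 of this list were lower and 5 higher between TTX and BC, beside 12.1% and 11.3% of all genes. With BC against CTL 1 was lower and 1 higher at the FDR alone, beside 3.49% and 4.61%.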

How the data were processed

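RNA of 12 samples (CTL, TTX and BC, 4 each, grouped by the sample labels) was read on one-color arrays. The authors deposited scanner intensities, which Feature Extraction 9.5.1.1 had corrected for background within each array, and a table of log2 values that they had quantile-normalized with limma (version not given in the sources used here). In that table BC replicate 2 lacks 1131 values, and it served as an alternative.

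Processed intensities were taken to log2 and quantile-normalized after outlier spots were left out, without a filter on dim probes. One mean per group was fitted in limma 3.58.1 (R 4.3.3) with eBayes. Genes were represented by their brightest probe, and no spot was left out for saturation. Probe names were updated through a table of RefSeq genes. Python 3.11.15, pandas 2.3.3, numpy 2.4.6, the R package data.table (version 1.17.8) and matplotlib 3.10.9 were also used. Precision is limited by 4 arrays per group.

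The members and lists were chosen with earlier results of these data known. The text names all 36 members, with values by array for those called in any comparison, and up to 6 called genes of each companion list and comparison. The fit was tested on simulated data with independent noise on each array, which did not hold the correlation of arrays on the same pair of slides. The result of the oligodendrocyte lineage list is not reported here beyond its detection.

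The replicate numbers were checked for pairing by correlating the deviations from the group means of arrays sharing a number. The correlations were 0.28 to 0.38 for TTX and CTL, where arrays sharing a number lay on the same pair of slides (1 and 3, or 2 and 4). They were -0.35 to -0.24 for BC and CTL. For TTX and BC they were -0.38 to -0.28. Over all arrays of different groups, the correlations were 0.20 to 0.41 on the same pair of slides and -0.39 to -0.20 on different pairs. The values for arrays sharing a number lay within these ranges, so pairing by number could not be told apart from the pair of slides. The fit with the replicate block is an alternative throughout.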

Additional observations from a re-analysis of the deposited data

Results flagged for a closer look

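In 3 of the 108 sets of 4 arrays (36 members in 3 groups), 1 array stood apart from the other 3 by Dixon's ratio, the gap to its neighbour divided by the range of the group, where chance marks about 1 set in 20. Mvd on TTX replicate 3 was at 15.71 against 15.91 to 15.94 on the other TTX arrays (ratio 0.871). Lss on the same array was at 11.77 against 12.05 to 12.08 (ratio 0.913). Fads1 on BC replicate 3 was at 13.71 against 13.42 on each of the other BC arrays (ratio 0.983).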

How the results depend on the processing

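No member called in a comparison changed sign under any alternative run. Against CTL, 3 members were called with TTX in every alternative but these: 1 with averaging within pairs of slides, 16 with no fold threshold, and 2 to 4 on leaving out 1 array. The 16 members past the FDR alone became 1 with averaged arrays, 20 with the slide block, 11 with the replicate block and 13 to 17 on leaving out 1 array. With BC against CTL the 0 called members became 2 with no fold threshold, and the 2 past the FDR alone became 4 with the median signal, 4 with trend and robust, 9 with the slide as a block, 10 with the slide set as a block, 0 with averaged arrays, 0 with the replicate block, also with only those groups fitted (an alternative chosen after seeing the data), and 1 to 3 on leaving out 1 array. Between TTX and BC the 8 called members became 21 with no fold threshold, 5 with the replicate block and only those groups, and 6 to 10 on leaving out 1 array, and the 21 past the FDR alone became 9 with that block and 17 to 21 on leaving out 1 array. With that block Nsdhl (adjusted p = 0.0658), Abca1 (0.0903) and Cyp46a1 (0.112) lost their calls. The replicate block over all 12 arrays changed 1 call, Srebf1 between TTX and BC (adjusted p = 0.0717), which also missed the FDR with the deposited log2 values (0.0512), averaged arrays (0.101) and the unmoderated test (0.0606). Joining probes through accessions added none. The cause of these changes was not tested. The counts at the FDR alone were added as results after the data were seen.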
